A study of Mus musculus with 12 samples.

Results

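The data describe 52 genes of the actin cytoskeleton, among them Srf and genes known as targets of the transcription factor it encodes, in mouse bone marrow-derived mesenchymal stromal cells (MSCs). The 52 genes were chosen by name, with earlier results of these data known. Each was found in the deposited count table of 55487 genes. RNA was sequenced from 12 samples of primary MSCs of wild-type C57BL/6 mice, in 3 groups of 4. Control MSCs were untreated, A1 MSCs received 50 µM A1 for 6 h, and A1 + OVA MSCs received 50 µM A1 with 1 mg/ml ovalbumin (OVA, the antigen) for 6 h. A1 is a variant of the Accum molecule, in which cholic acid, a bile acid, is joined to the nuclear localization signal of the RNA-binding protein hnRNPA1. The study selected A1 for making MSCs present antigen, and the comparison asks what it does to the transcriptome. The MSCs were cultured from the femurs of female mice in serum-containing medium. They were collected from the first dish when most of it was covered, and then expanded and stored frozen. After the treatment they were detached before RNA was extracted. The paper's methods give no cell density for the RNA samples. The label of the A1 + OVA medium also holds an incomplete mention of insulin that the A1 label lacks. The paper's methods name no insulin for this treatment, so whether it was present is not known. If it was, insulin and OVA cannot be told apart in a comparison of these groups. No group with OVA alone and no diluent group were analysed here.

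Actin monomers assemble into filaments that give a cell its shape, its grip on the substrate and, with myosin II, its contractile force. Serum response factor (SRF) binds the CArG box of many of these genes. Its cofactors of the MRTF family are held by free actin monomers in the cytoplasm, and reach the nucleus when monomers are driven into filaments, so that the pool of free actin is coupled to transcription of actin and its partners. In stromal cells, high levels of smooth muscle actin, transgelin and calponin are known as features of a spread, contractile state.

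The CArG box consists of a pair of C, 6 letters that are each A or T, and a pair of G. The pattern reads as itself on the other strand, so both strands were searched. RefSeq promoter windows on GRCm38.p6 (250 bases before to 50 bases after a gene start) were matched by symbol for 46 of the 52 genes, and 8 of these held a box. The stretches around these boxes are shown because SRF is known to bind these letters, also in its own gene. They run 5′ to 3′ on the strand of the gene and end before the gene start, with the box in capitals. A match describes the letters only and is not evidence of binding.
Srf: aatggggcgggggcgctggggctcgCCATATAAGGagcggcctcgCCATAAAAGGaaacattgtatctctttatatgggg
Actg1: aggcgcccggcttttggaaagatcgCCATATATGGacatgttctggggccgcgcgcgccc
Cnn2: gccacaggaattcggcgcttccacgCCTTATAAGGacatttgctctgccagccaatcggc
Vcl: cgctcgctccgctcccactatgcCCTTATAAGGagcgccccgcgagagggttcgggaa
Myl9: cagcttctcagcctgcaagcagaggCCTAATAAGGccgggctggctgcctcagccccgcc
Arpc4: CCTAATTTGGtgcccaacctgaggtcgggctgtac
Fhl2: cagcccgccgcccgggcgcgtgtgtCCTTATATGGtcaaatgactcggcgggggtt
Fhl2, second window: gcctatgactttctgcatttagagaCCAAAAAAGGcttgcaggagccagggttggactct
Lima1: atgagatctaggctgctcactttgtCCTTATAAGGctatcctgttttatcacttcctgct

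The Srf stretch lies at chr17:46556190-46556269, minus strand, and holds 2 boxes, which begin 82 and 62 bases before the start. The Actg1 stretch (chr11:120348551-120348610, minus strand) has its box 90 bases before the start, and that of Cnn2 (chr10:79988519-79988578, plus strand) 56 bases before it. Vcl (chr14:20929148-20929205, plus strand), Cnn2 and Lima1 (chr15:99820162-99820221, minus strand) share the same 10 letters in the box, at 227, 56 and 47 bases before their starts. The Myl9 box (chr2:156775278-156775337, plus strand) begins 161 bases before the start. In Arpc4 (chr6:113377863-113377897, plus strand) it lies 250 bases before the start, at the edge of the window. Fhl2 had a box in both of its windows, chr1:43163962-43164017, minus strand, and chr1:43196823-43196882, minus strand, at 31 and 96 bases before the respective start. A box in which 1 of the 6 middle letters is G or C instead is called CArG-like here. Acta2, the smooth muscle actin, held a pair of these at 84 and 34 bases before its start (chr19:34255374-34255482, minus strand).
Acta2, CArG-like boxes in capitals: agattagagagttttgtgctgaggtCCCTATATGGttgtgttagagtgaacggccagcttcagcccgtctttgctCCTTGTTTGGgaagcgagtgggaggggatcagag

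A box was found in 17.4% of the 46 matched genes, in 1.81% of the 27025 genes of the promoter table, and in 1.59% of the 8954 tested genes with a window. CArG-like boxes were found in 6 of 46 genes (13.0%), beside 9.69% of all genes of the table. The genes were picked by what is known of them, including known SRF targets, so the higher share is a description of the list. Promoters of Actb, Actg2, Tagln, Svil, Diaph1 and Tln2 were not matched.

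The samples held between 13702348 and 16881995 counts. All 4 A1 samples (13702348 to 14347870) lay below all 4 control samples (15644991 to 16881995), and the part of depth in the results was not tested. Of 13 stromal markers all were found, Col1a1, Col1a2 and Itgb1 among the abundant ones, while Thy1 and Lepr were below the filter with at most 17 and 16 counts and Nt5e had at most 14. The summed stromal markers were lower in treated samples. Their sum was 11865 to 12390 CPM in A1 and 12042 to 12425 CPM in A1 + OVA, beside 13972 to 14729 CPM in control. Cxcl12 alone went from a mean of 3910 CPM in control to 1514 in A1 and 1692 in A1 + OVA. Of 11 tested markers, 2 rose and 4 fell with A1, and 2 rose and 5 fell with A1 + OVA. The shares of all genes are given below. With A1, Cd44 (log2 fold change 1.39) and Itgb1 (0.62) rose. Cxcl12 (-1.37), Pdgfra (-0.99), Vcam1 (-0.95) and Col1a2 (-0.23) fell. Of the 9 smooth muscle markers, Myocd had at most 1 count and Myh11 at most 7 in any sample. Their sum rose from 208 to 233 CPM in control to 443 to 461 CPM in A1 and 484 to 506 CPM in A1 + OVA, and it includes Actg2, Cnn1 and Lmod1 of the genes described here. The 7 endothelial markers summed to at most 0.916 CPM in any sample. The 5 adipocyte markers summed to 64.2 to 70.5, 62.7 to 71.1 and 66.0 to 78.9 CPM in control, A1 and A1 + OVA, of which Fabp4 made up most, and 2 others fell, Adipoq from 2.20 CPM in control to 0.670 and 0.689 (log2 fold changes of -1.71 and -1.67) and Cidec (-0.78 and -0.54). In bulk RNA, fewer cells of a type and less RNA per cell cannot be told apart. The labels do not say whether the 4 samples of a group came from separate cultures or animals, so that p-values measure the spread between these samples, which may be technical.

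Most of the cytoskeletal genes rose with A1. All 52 passed the filter on low counts, and in the comparison of A1 with control 44 rose and 6 fell at an adjusted p under 0.05 (edgeR's quasi-likelihood test, Benjamini-Hochberg over all 11314 tested genes), while Myh10 and Svil did not pass. Over all tested genes, 31.7% rose and 31.1% fell. The 52 were chosen with earlier results of these data known, so the comparison with all genes describes the list. The median log2 fold change of the 52 was 0.51, a fold of 1.42, beside -0.00 over all tested genes. At a log2 fold change of 0.5 or more 26 of the 52 rose, beside 9.41% of all genes, and 3 fell by as much (Mylk, Tln2 and Myl12b), beside 11.6%. In 48 of the 52 the 4 treated samples lay on 1 side of all 4 control samples, which was so for 54.4% of all genes. The folds of the genes that rose ran from 1.09 for Capza1 to 4.57 for Cnn1, with 7 genes at 2-fold or more. The share of all counts that fell on the 52 genes was 2.49 to 2.59% in control samples and 3.71 to 3.76% in A1 samples.

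With A1 + OVA, 44 genes again rose and 6 fell against control, and Myh10 and Capza1 did not pass. Of all genes, 29.7% rose and 27.9% fell in this comparison. The median of the 52 was 0.55 beside 0.00, 28 rose by 0.5 or more (8.92% of all genes), and Tln2 was alone among them in falling by as much (8.79% of all genes). Treated and control samples did not overlap in 48 of the 52 (49.4% of all genes). The 52 genes took 3.84 to 3.96% of the counts of these samples. Both comparisons use the same 4 control samples and are therefore not independent of each other. The genes that fell were Mylk, Tln2, Myl12b, Lima1, Enah and Rdx with A1 and likewise with A1 + OVA. The 6 that fell with A1 + OVA became 3 when either control replicate 2 or A1 + OVA replicate 3 was left out, since Myl12b, Enah and Rdx then missed the threshold.

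**Figure D1:**
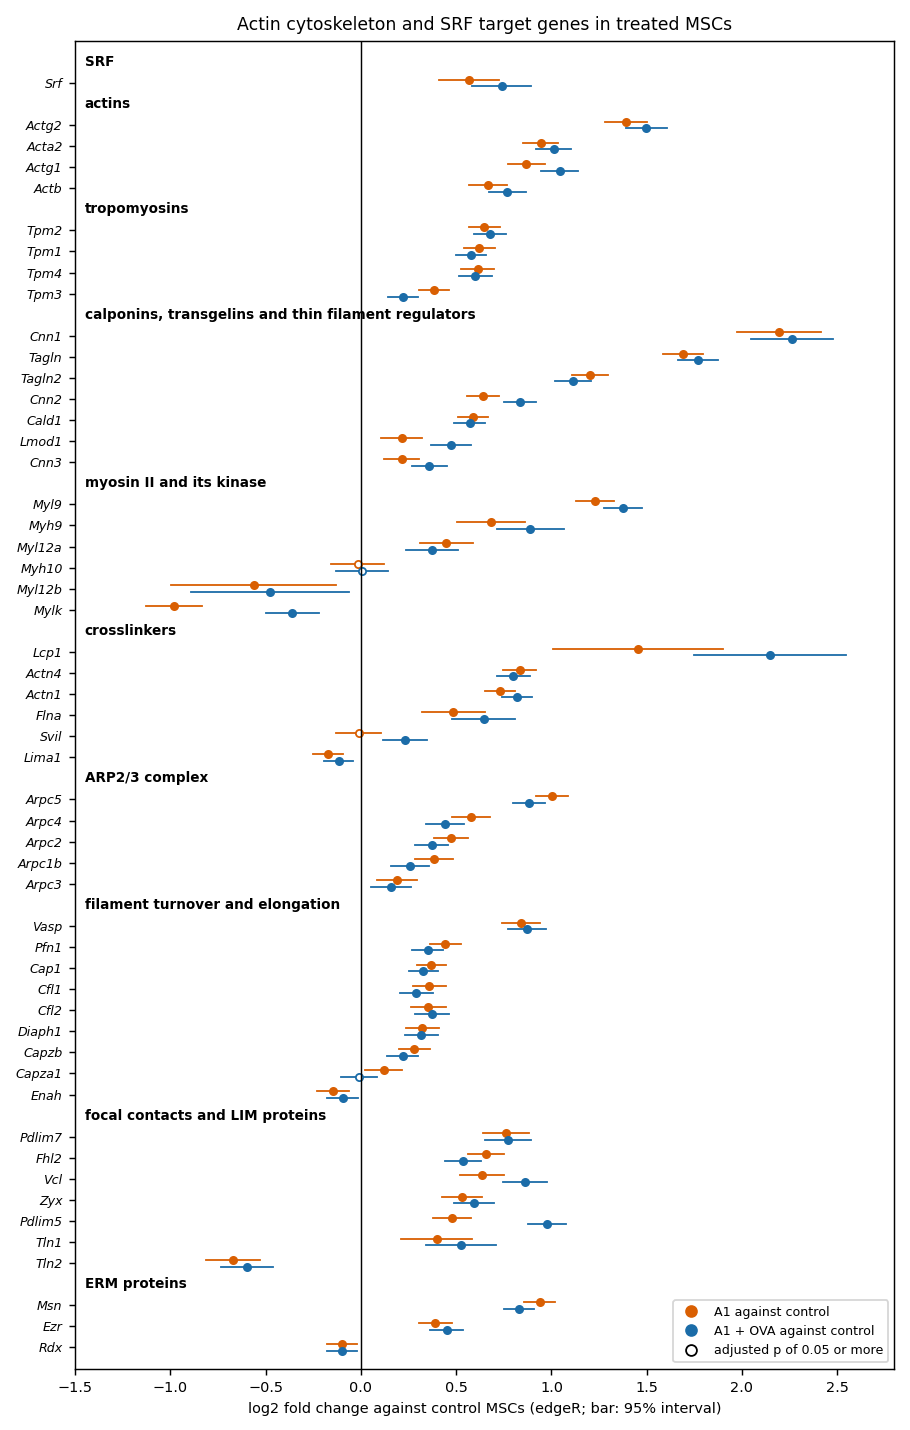
Log2 fold change against control MSCs (horizontal axis) of each of the 52 genes, grouped by function, for A1 (orange) and A1 + OVA (blue). Bars are 95% intervals from the edgeR fit, and open points mark an adjusted p of 0.05 or more. Most points lie right of 0, led by Cnn1 at 2.19 and 2.26, and Mylk, Tln2 and Myl12b stand on the left.

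**Figure D2:**
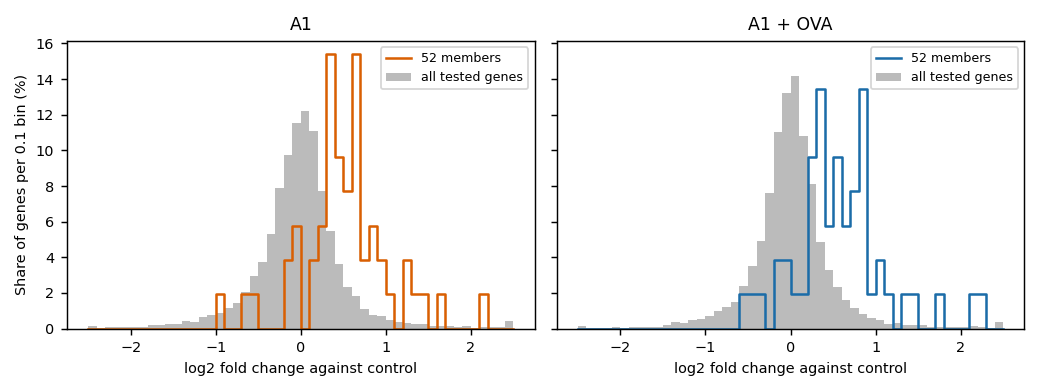
Share of genes (vertical axis, %) in bins of 0.1 of the log2 fold change against control, for all 11314 tested genes (grey) and the 52 cytoskeletal genes (line). The outermost bins also hold the values beyond the axis. The grey distribution is centred near 0 in both panels, and the line has its median at 0.51 for A1 and 0.55 for A1 + OVA.

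Srf itself (ENSMUSG00000015605, chr17:46548329-46556175, minus strand), which encodes the transcription factor, rose with both treatments. Srf measured 52.1, 41.02, 45.2 and 47.6 CPM in control, 76.7, 65.8, 67.9 and 64.6 CPM in A1 and 79.7, 75.5, 84.3 and 70.6 CPM in A1 + OVA samples. Neither treated group overlapped with control, while the treated groups overlapped with each other. The log2 fold change was 0.57 with A1 (SE 0.07, edgeR's adjusted p = 4.08e-07) and 0.74 with A1 + OVA (SE 0.068, adjusted p = 6.17e-09). Between the treatments Srf differed by 0.17 (95% interval 0.02 to 0.32), which did not pass (adjusted p = 0.0976) but did without A1 replicate 1 (0.23, adjusted p = 0.0421), without the filter on low counts (adjusted p = 0.0364) and with the replicate number as a block (adjusted p = 0.0385).

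All 4 actin genes rose in both comparisons with control. Actg2 (ENSMUSG00000059430, chr6:83512905-83536265, minus strand), the gamma actin of smooth muscle, had the largest fold. Actg2 measured 117, 97.4, 106 and 99.6 CPM in control, 285, 264, 276 and 277 CPM in A1 and 292, 305, 290.0 and 299 CPM in A1 + OVA samples. Every treated sample held over 2 times the level of the highest control sample. The log2 fold change was 1.39 (SE 0.048, adjusted p = 4.25e-16) with A1 and 1.50 (SE 0.048) with A1 + OVA. Acta2 (ENSMUSG00000035783, chr19:34241090-34255590, minus strand) is the alpha actin of smooth muscle and of contractile stromal cells. Acta2 measured 2427, 2130.4, 2200.0 and 2234 CPM in control, 4365, 4269.8, 4430.5 and 4223 CPM in A1 and 4647, 4634, 4430.2 and 4423 CPM in A1 + OVA samples. The control samples lay well apart from both treated groups, whose ranges overlapped. Acta2 rose by 0.94 (SE 0.041, adjusted p = 1.85e-14) and 1.01 (SE 0.041) on the log2 scale. The cytoplasmic actins followed. Actg1 went from 412 ± 19.1 CPM (mean ± SD, n = 4) in control to 752 ± 26.8 in A1 and 848 ± 34.6 in A1 + OVA. Actb, often taken as a reference gene of constant level, rose 1.59-fold with A1 (log2 fold change 0.67, SE 0.044, adjusted p = 1.73e-11) and 1.70-fold with A1 + OVA (0.77). Between the treatments Actb passed only without A1 + OVA replicate 4 (0.14, adjusted p = 0.0446). Actb is named here outside the rule that chose the genes shown by sample. Of the 100-base windows of Actg1 transcripts, 29.9% also occur in other genes, mainly pseudogenes, so its counts are less certain than those of Acta2 and Actg2, which share none.

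Since the actins rose by different amounts, the make-up of the actin transcripts shifted. Per kilobase of exon, Actb was the most abundant with 1259 ± 27.9 RPKM in control, 1998 ± 36.1 in A1 and 2144 ± 153 in A1 + OVA. Acta2 was next with 1024 ± 57.8, 1968 ± 42.5 and 2064 ± 56.2 RPKM, so that in the treated groups the ranges of these 2 genes lay close to each other. Of the summed RPKM of the 4 actins, Actb held 49.0 to 50.8% in control samples, 45.04 to 45.3% in A1 and 44.1 to 47.0% in A1 + OVA samples. The share of Acta2 was 40.4 to 42.2% in control, 44.0 to 44.7% in A1 and 42.6 to 45.0% in A1 + OVA. Actg2 held 2.54 to 2.88%, 3.89 to 4.12% and 3.94 to 4.28%. For these 3 genes the treated samples lay outside the range of the control samples. The share of Actg1, at 5.91 to 6.53%, 6.10 to 6.601% and 6.51 to 6.94%, overlapped between control and either treated group. No test was run on the shares. The sum itself was 2505 ± 91.6 RPKM in control, 4426 ± 82.2 in A1 and 4718 ± 195 in A1 + OVA (mean ± SD, n = 4).

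**Figure D3:**
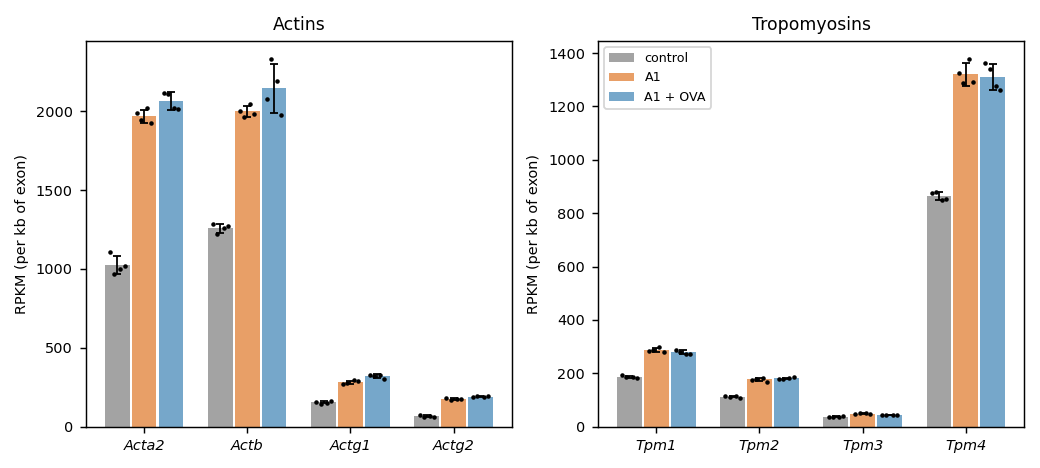
Levels per kilobase of exon (RPKM, vertical axis) of the 4 actins and the 4 tropomyosins in control (grey), A1 (orange) and A1 + OVA (blue) samples. Bars are means of 4 samples, error bars SD and dots single samples. Actb and Acta2 reach about the same level in treated samples, and Tpm4 stands above the other tropomyosins in each group.

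The 4 tropomyosins, which wrap along the filament and set which partners can bind it, all rose, and Tpm1, Tpm2 and Tpm4 did so to nearly the same degree. Tpm1 measured 1246, 1213, 1198 and 1189.9 CPM in control, 1839, 1867, 1937 and 1811 CPM in A1 and 1869, 1828, 1776 and 1759.6 CPM in A1 + OVA samples. Tpm2 measured 340.3, 329, 330.1 and 317 CPM in control, 513, 522, 535 and 493 CPM in A1 and 518, 518, 528 and 540.1 CPM in A1 + OVA samples. No treated sample of either gene came down to the control range. Tpm2 had a log2 fold change of 0.65 (SE 0.037, adjusted p = 1.44e-12) with A1 and 0.68 with A1 + OVA, and Tpm1 of 0.62 (SE 0.036, adjusted p = 2.10e-12) and 0.58. Tpm4 was the most abundant per length, with 863 ± 15.3 RPKM in control and 1320.0 ± 41.97 in A1, and its log2 fold change was 0.61. Tpm4 made up 71.9% of the summed RPKM of the family in control, 72.0% in A1 and 72.2% in A1 + OVA on average. Such shares depend on the merged exon length of each gene, 2203 bases for Tpm4 and 6485 for Tpm1. Without division by length, Tpm4 was at 1902 CPM and Tpm1 at 1212 CPM in control. The sum of the family went from 1201 ± 20.4 to 1834 ± 54.6 and 1814 ± 53.1 RPKM. The share of Tpm3 was 3.11 to 3.29% in control samples, 2.66 to 2.79% in A1 and 2.33 to 2.53% in A1 + OVA, with no overlap between the groups and no test run. Tpm3 rose least. Tpm3 measured 231, 230.0, 226 and 237 CPM in control, 299, 307, 309.8 and 289 CPM in A1 and 265, 268, 273 and 269 CPM in A1 + OVA samples. Its 3 groups did not overlap, with A1 + OVA between control and A1, at log2 fold changes of 0.38 (A1) and 0.22 (A1 + OVA). Part of the Tpm3 and Tpm4 windows, 15.8% and 7.37%, also occur in a related gene copy.

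The 7 calponins, transgelins and thin filament regulators held several of the largest increases, and all of them rose in both comparisons. Cnn1 (ENSMUSG00000001349, chr9:22099216-22109630, plus strand), the calponin of smooth muscle, which binds actin and dampens myosin activity, had the largest fold of the 52 genes with either treatment. Cnn1 measured 4.33, 3.66, 3.71 and 4.51 CPM in control, 19.3, 17.6, 20.5 and 16.9 CPM in A1 and 20.8, 18.5, 20.003 and 18.7 CPM in A1 + OVA samples. This is a gene of low level that rose in every treated sample, by 2.19 on the log2 scale with A1 (SE 0.097, adjusted p = 2.45e-14) and 2.26 with A1 + OVA (SE 0.095). Tagln (ENSMUSG00000032085, chr9:45929619-45936058, minus strand) encodes transgelin, an actin-binding protein of smooth muscle and contractile fibroblasts. Tagln measured 172, 145, 154 and 149 CPM in control, 499, 487, 525 and 495 CPM in A1 and 537, 540.1, 531 and 509.9 CPM in A1 + OVA samples. Its log2 fold change of 1.69 (SE 0.046) had the smallest adjusted p of the 52 genes with A1, 9.88e-18, and with A1 + OVA it was 1.77 (SE 0.046). Tagln2, the form found in most cells, went from 296 ± 21.01 CPM in control to 682 ± 3.87 in A1 and 641 ± 7.70 in A1 + OVA. Cnn2, the calponin of non-muscle cells, rose by 0.64 and 0.83, and caldesmon (Cald1), which links actin, tropomyosin and myosin, by 0.59 and 0.57. Cnn3 (0.21 and 0.36) and Lmod1 (0.21 and 0.47), a leiomodin that starts new filaments in smooth muscle, rose less.

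**Figure D4:**
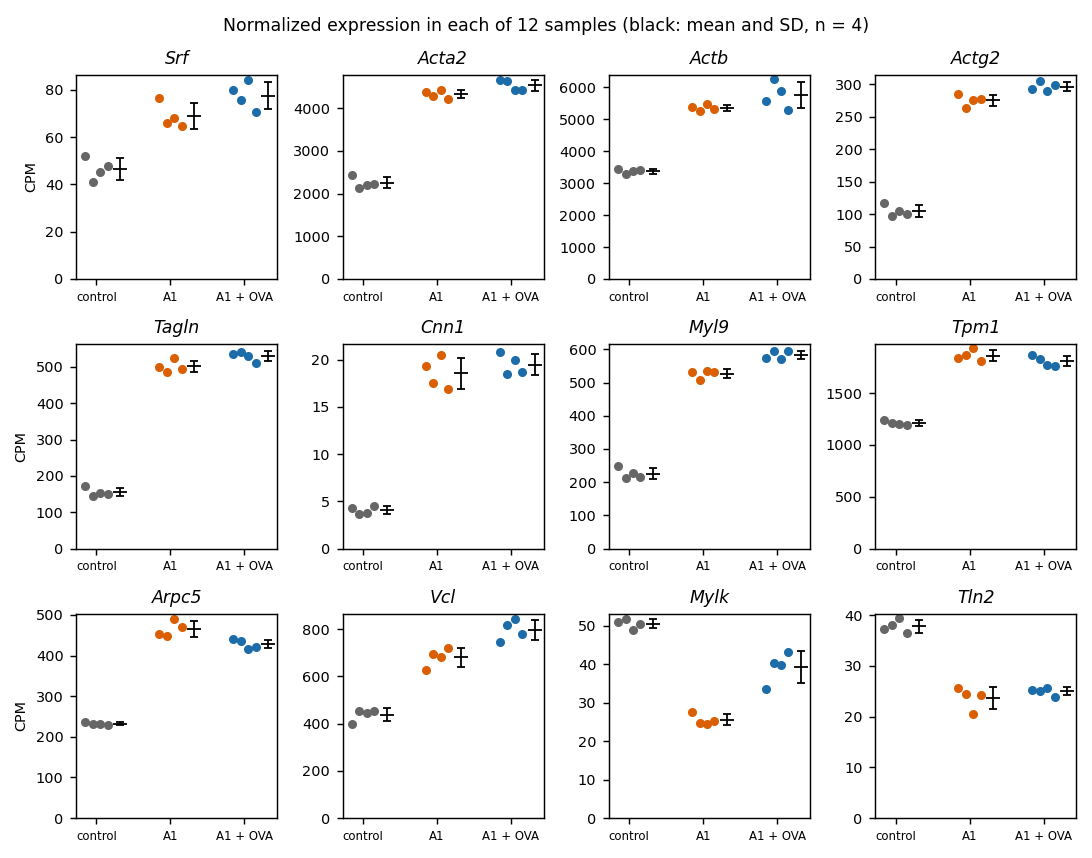
Normalized expression (CPM, vertical axes from 0) of 12 of the 52 genes in each sample, with control in grey, A1 in orange and A1 + OVA in blue, and the mean with SD (n = 4) in black beside each group. In 10 of the panels all treated samples lie above all control samples, and in Mylk and Tln2 all lie below them.

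Myosin II, the motor that pulls on actin filaments, did not move as 1 unit. In both comparisons with control, 3 of the 6 genes of myosin II and its kinase rose and Myh10 did not pass. The 2 that fell were the kinase gene Mylk and Myl12b, a myosin gene of very low level. Myl9, the regulatory light chain best known from smooth muscle, rose most. Myl9 measured 248, 212, 227 and 214 CPM in control, 533, 508, 535 and 533 CPM in A1 and 575, 596, 571 and 594 CPM in A1 + OVA samples. The 3 groups did not overlap, and the log2 fold change against control was 1.23 with A1 (SE 0.044, adjusted p = 7.92e-16) and 1.37 with A1 + OVA (SE 0.044). Per kilobase, Myl9 moved from place 8 among the 52 genes in control (194 ± 14.05 RPKM) to place 5 in A1 (454 ± 10.9) and place 4 in A1 + OVA (503 ± 10.9). Myh9, a heavy chain of non-muscle myosin II, rose by 0.68 and 0.89, with the wide SEs of 0.078 and 0.078. Myh10, the other non-muscle heavy chain among the 52 genes, was at 321 ± 26.5, 318 ± 24.1 and 323 ± 23.5 CPM. Its log2 fold changes were -0.02 (95% interval -0.15 to 0.12) and 0.01 (-0.13 to 0.14), and their sign turned under several settings.

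Mylk (ENSMUSG00000022836, chr16:34745210-35002420, plus strand) encodes myosin light chain kinase, which switches myosin II on by phosphorylating its light chains, and it had the largest decrease of the 52 genes with A1. Mylk measured 50.99, 51.8, 48.9 and 50.3 CPM in control, 27.7, 24.8, 24.5 and 25.3 CPM in A1 and 33.5, 40.4, 39.9 and 43.2 CPM in A1 + OVA samples. The 3 groups did not overlap, with A1 lowest and A1 + OVA between A1 and control. Mylk fell by 0.98 on the log2 scale with A1 (SE 0.066, adjusted p = 2.59e-11) and by 0.36 with A1 + OVA (SE 0.061, adjusted p = 3.27e-05). Myl12b, another light chain gene, was counted at a very low level. Myl12b measured 3.09, 3.01, 2.91 and 2.19 CPM in control, 1.59, 2.29, 1.76 and 1.96 CPM in A1 and 1.45, 2.34, 1.65 and 2.53 CPM in A1 + OVA samples. Its groups overlapped. The log2 fold change was -0.56 with A1 (95% interval -0.997 to -0.13, adjusted p = 0.0143) and -0.48 with A1 + OVA (-0.89 to -0.06, adjusted p = 0.0309), and the call with A1 + OVA was lost with DESeq2 (adjusted p = 0.0588) and when any of control replicates 1, 2 and 3 or A1 + OVA replicates 1 and 3 was left out (0.0624 to 0.105). A second gene model of the same name overlaps it and had 0 counts in each sample, and 24.04% of its windows occur elsewhere, so the level of Myl12b is uncertain. Myl12a rose by 0.45 and 0.37, with 13.1% of its windows shared.

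Among the crosslinkers, which tie filaments into bundles and nets, 4 of 6 rose and 1 fell with A1, and 5 rose and 1 fell with A1 + OVA. Lcp1, the plastin of leukocytes, had the largest fold but a very low level. Lcp1 measured 2.17, 3.07, 1.86 and 0.941 CPM in control, 5.86, 6.34, 5.34 and 4.72 CPM in A1 and 9.35, 9.37, 8.91 and 8.38 CPM in A1 + OVA samples. The 3 groups did not overlap, and rose from control over A1 to A1 + OVA. Lcp1 rose by 1.45 (SE 0.20, adjusted p = 1.51e-06) and 2.15 (SE 0.18, adjusted p = 8.26e-10). The 10 macrophage and leukocyte markers summed to 9.53 to 10.5 CPM in control, 12.1 to 14.9 CPM in A1 and 10.8 to 13.1 CPM in A1 + OVA, of which Cd14 and Cd68 made up most. Of the others, Tyrobp had 0 counts in every sample. Itgam and Fcgr3 had at most 1, Adgre1 2, Ptprc and Laptm5 4, Lyz2 7 and Csf1r 14. The part of leukocytes in the rise of Lcp1 was not tested.

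Actn4, an alpha-actinin of stress fibres and the cell edge, went up evenly. Actn4 measured 431, 411, 445 and 457 CPM in control, 769, 797, 755 and 784 CPM in A1 and 758, 761, 775 and 739.5 CPM in A1 + OVA samples. Its control samples lay below both treated groups, and the log2 fold changes were 0.83 (SE 0.038, adjusted p = 3.99e-14) and 0.80 (SE 0.038). Its relative Actn1 rose by 0.73 and 0.82, and filamin A (Flna) by 0.48 and 0.65. Svil, encoding supervillin, which links actin and myosin to the membrane, differed in its call between the treatments. Svil measured 84.1, 91.7, 90.9 and 91.7 CPM in control, 82.2, 95.8, 85.6 and 92.1 CPM in A1 and 103, 97.3, 107 and 113 CPM in A1 + OVA samples. Control and A1 samples were mixed, and all A1 + OVA samples lay above both. The log2 fold change was -0.01 with A1 (95% interval -0.13 to 0.11, adjusted p = 0.862) and 0.23 with A1 + OVA (0.11 to 0.35, adjusted p = 6.15e-04). Lima1, which stabilizes bundles, fell by 0.17 and 0.12 on the log2 scale.

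The ARP2/3 complex starts branches on existing filaments, and all 5 of its subunit genes among the 52 rose in both comparisons. Of the subunit genes outside the 52, Actr2 (366 CPM in control, log2 fold changes of 0.50 and 0.44) also rose. So did Actr3 (427 CPM in control, 0.52 and 0.49) and Arpc5l (0.17 and 0.13). Arpc1a did not pass in either comparison (-0.03 and -0.01). Actr3b, at the low level of 3.57 CPM in control and 1.34 CPM in A1, fell, as given below. Arpc5 led the 5 subunit genes among the 52. Arpc5 measured 237, 232, 230.5 and 229 CPM in control, 454, 447, 490.1 and 470.3 CPM in A1 and 439.7, 435, 417 and 421 CPM in A1 + OVA samples. A1 samples held about 2 times the control level and A1 + OVA samples lay just below the A1 samples, with log2 fold changes of 1.00 (SE 0.037, adjusted p = 1.49e-15) and 0.88 (SE 0.037). Arpc4 measured 148, 133, 141 and 131 CPM in control, 209, 198, 217 and 201 CPM in A1 and 183, 187, 182 and 199.6 CPM in A1 + OVA samples. The rise of Arpc4 was 0.58 (SE 0.044, adjusted p = 2.66e-10) and 0.44 (SE 0.044), and 12.2% of its exon bases overlap Ttll3 on the same strand. Arpc2 rose by 0.47 and 0.37, Arpc1b by 0.38 and 0.26, and Arpc3 by 0.19 and 0.16. Arpc3 with A1 + OVA lost its call when only library totals were used for scaling (adjusted p = 0.0937). All 5 fold changes were smaller with A1 + OVA than with A1 (log2 differences of -0.14 to -0.03), and those of Arpc4 and Arpc5 passed the test between the treatments, though not under every alternative, as given with that comparison.

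Of 9 genes of filament turnover and elongation, 8 rose and Enah fell with A1. Vasp, which lengthens filaments at their growing ends, rose most. Vasp measured 91.1, 79.4, 82.4 and 82.95 CPM in control, 154, 146, 147 and 154 CPM in A1 and 148, 151, 162 and 153 CPM in A1 + OVA samples. Its treated groups overlapped with each other and lay above control, with log2 fold changes of 0.84 (SE 0.044, adjusted p = 4.71e-13) and 0.87 (SE 0.044). Profilin (Pfn1) loads monomers for growth. Pfn1 measured 433, 392, 415 and 421 CPM in control, 557, 563, 572 and 567 CPM in A1 and 535, 536, 518 and 529.8 CPM in A1 + OVA samples. It rose by 0.44 (SE 0.036, adjusted p = 6.32e-10) and 0.35 (SE 0.036). Cap1, which recharges monomers, rose by 0.37 and 0.33. The cofilins Cfl1 and Cfl2, which sever filaments, rose by 0.36 and 0.35 with A1 and by 0.29 and 0.37 with A1 + OVA. The formin Diaph1, which starts and lengthens unbranched filaments, rose by 0.32 with either treatment. Enah, which belongs to the same protein family as Vasp, went the other way, falling by 0.15 with A1 (95% interval -0.23 to -0.06, adjusted p = 0.00166) and by 0.10 with A1 + OVA (-0.18 to -0.01, adjusted p = 0.0293). Without control replicate 2 or 3 or any of A1 + OVA replicates 1, 3 and 4, the A1 + OVA call of Enah was lost (adjusted p = 0.0564 to 0.0943).

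Capping protein closes the growing end of a filament. Its beta subunit Capzb rose by 0.28 and 0.22. Capza2, an alpha subunit gene outside the 52, was at 420 ± 12.3 CPM in control, 406 ± 11.2 in A1 and 387 ± 7.36 in A1 + OVA. Its log2 fold change was -0.05 with A1, which did not pass, and -0.12 with A1 + OVA, which did. Capza1, an alpha subunit gene of the 52, differed in its call. Capza1 measured 85.8, 90.2, 81.6 and 81.4 CPM in control, 92.1, 87.2, 95.04 and 93.9 CPM in A1 and 87.05, 82.8, 82.7 and 84.3 CPM in A1 + OVA samples. The range of control overlapped with that of either treated group. The log2 fold change was 0.12 (95% interval 0.02 to 0.22, adjusted p = 0.0207) with A1 and -0.01 (-0.11 to 0.09, adjusted p = 0.850) with A1 + OVA. The A1 call was lost with upper-quartile scaling (adjusted p = 0.0750), with library totals only (0.445), and without any of control replicates 3 and 4 and A1 replicates 3 and 4 (0.0711 to 0.0834). Of its windows 49.8% occur in pseudogenes, the highest share of the 52 genes.

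Focal contacts join filaments to integrins, and 6 of their 7 genes rose with either treatment. Pdlim7, a LIM protein of stress fibres, led with A1. Pdlim7 measured 93.1, 77.7, 86.5 and 92.2 CPM in control, 147, 149, 146 and 149 CPM in A1 and 141, 142, 164 and 149.6 CPM in A1 + OVA samples. The treated groups overlapped with each other and not with control, at log2 fold changes of 0.76 (SE 0.053, adjusted p = 5.47e-11) and 0.77 (SE 0.053). Pdlim5, a relative that also sits on alpha-actinin, rose in steps. Pdlim5 measured 124, 134, 132 and 134 CPM in control, 174, 184, 181 and 193 CPM in A1 and 241, 257, 274 and 262 CPM in A1 + OVA samples. No samples of the 3 groups overlapped, and the log2 fold change against control was 0.48 with A1 (SE 0.044, adjusted p = 4.90e-09) and 0.98 with A1 + OVA (SE 0.044, adjusted p = 3.37e-14). Vinculin (Vcl), which reinforces the link between talin and actin under load, rose by 0.63 and 0.86. Zyxin (Zyx) rose by 0.53 and 0.59, and the LIM protein Fhl2 by 0.66 and 0.54.

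The talins, which bind integrin tails, moved in opposite directions. Tln1 rose by 0.40 and 0.52 (SE 0.082 for both). Tln2 fell. Tln2 measured 37.3, 38.1, 39.4 and 36.4 CPM in control, 25.6, 24.4, 20.5 and 24.3 CPM in A1 and 25.3, 25.1, 25.7 and 23.8 CPM in A1 + OVA samples. Each treated sample lay below each control sample, and Tln2 fell by 0.67 on the log2 scale with A1 (SE 0.062, adjusted p = 4.65e-09) and by 0.60 with A1 + OVA (SE 0.06, adjusted p = 2.21e-08). Per kilobase, Tln1 was at 30.8 ± 3.65 RPKM and Tln2 at 2.06 ± 0.0675 RPKM in control, so that the talin that fell was the minor one.

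The 3 ERM proteins tether filaments to the plasma membrane, and they split as well. Moesin (Msn) was the most abundant per length. Msn measured 815, 846, 849 and 855 CPM in control, 1547, 1674, 1599.7 and 1628 CPM in A1 and 1499, 1514, 1505 and 1461 CPM in A1 + OVA samples. It rose by 0.94 with A1 (SE 0.036, adjusted p = 2.01e-15) and 0.83 with A1 + OVA (SE 0.035), with no overlap between the 3 groups. Ezrin (Ezr) rose by 0.39 and 0.45. Radixin (Rdx) fell by 0.10 in both (95% interval -0.18 to -0.02, adjusted p = 0.0198 with A1). The call of Rdx was lost without control replicate 2 in both comparisons (adjusted p = 0.0645 and 0.0601), and with A1 + OVA also without A1 + OVA replicate 3 or 4 (0.0653 and 0.0510).

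The treated groups were also compared directly. Of the 52 genes 10 were higher and 4 lower in A1 + OVA than in A1, beside 6.05% and 6.81% of all tested genes, and the median difference was 0.04 on the log2 scale beside 0.01 over all genes. The split was 10 higher and 2 lower with upper-quartile scaling, and 10 higher and 1 lower with library totals only. Samples of the treated groups did not overlap for 21 of the 52 (18.1% of all genes). The 3 largest differences were those of Lcp1, Mylk and Pdlim5, whose samples are given above. Lcp1 was higher by 0.69 (95% interval 0.35 to 1.03, adjusted p = 0.00392), Mylk by 0.62 (0.47 to 0.77, adjusted p = 3.59e-06) and Pdlim5 by 0.50 (0.40 to 0.60, adjusted p = 1.57e-07). For Lcp1 and Pdlim5 the difference extended the rise with A1, and for Mylk it made up part of the fall. Lmod1 (0.26), Svil (0.24), Vcl (0.23), Cnn2 (0.19), Actg1 (0.17), Myl9 (0.15) and Cnn3 (0.15) were higher by less.

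The 4 genes lower in A1 + OVA were Tpm3 (-0.16, 95% interval -0.24 to -0.09, adjusted p = 0.00299), Arpc4 (-0.14, adjusted p = 0.0468), Arpc5 (-0.12, adjusted p = 0.0348) and Msn (-0.11, adjusted p = 0.0448). Of these, Tpm3 alone passed in each of the 20 alternatives, and the number of lower genes ran from 1 to 7 as single samples were left out. Arpc4 lost its call without control replicate 3, any of A1 replicates 1, 3 and 4 or any of A1 + OVA replicates 1, 2 and 3 (adjusted p = 0.0582 to 0.134), and also with upper-quartile scaling (0.0676), library totals only (0.0815) and the replicate number as a block (0.0537). Arpc5 lost it without A1 replicate 3 or 4 or any of A1 + OVA replicates 2, 3 and 4 (0.0519 to 0.108), and with library totals only (0.0552). Msn lost it without control replicate 3 or 4, any of A1 replicates 2, 3 and 4 or any 1 of the A1 + OVA samples (0.0575 to 0.134), and with upper-quartile scaling (0.0517), library totals only (0.0666) and no filter on low counts (0.0617). Among the genes that were higher, Myl9 lost its call without any of A1 replicates 1, 2 and 4 or A1 + OVA replicate 2 or 4 (0.0533 to 0.0804), and Cnn3 without A1 replicate 1 or 2 or A1 + OVA replicate 2 (0.0549 to 0.0885). For the 38 genes that did not pass, the log2 difference was between -0.13 and 0.21. The 95% interval lay within 0.5 of 0 for 37 of them and within 0.25 for 33, and the widest, that of Myl12b, ran from -0.38 to 0.56.

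**Figure D5:**
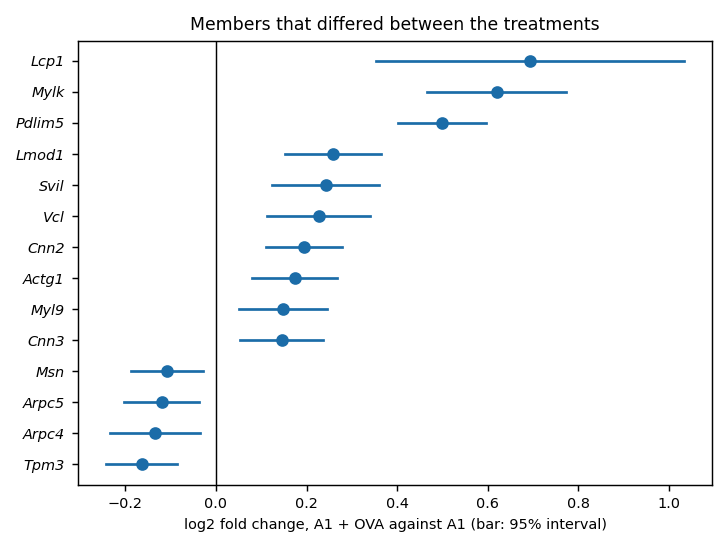
Log2 fold change of A1 + OVA against A1 (horizontal axis) for the 14 of 52 genes with an adjusted p under 0.05, with 95% intervals. Lcp1, Mylk and Pdlim5 lie between 0.50 and 0.69, and the other 11 within 0.26 of 0.

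The levels of the 52 genes were steady within groups. The coefficient of variation over the 4 samples had a median of 4.37% in control, 3.37% in A1 and 2.996% in A1 + OVA, and its highest values were those of the low genes Lcp1 (43.8% in control) and Myl12b (15.9% in A1 and 26.2% in A1 + OVA). Per kilobase, Actb, Acta2 and Tpm4 held the first 3 places in each group. Summed over families, myosin II and its kinase went from 396 ± 19.6 RPKM in control to 733 ± 10.1 in A1 and 799 ± 25.5 in A1 + OVA, and the focal contact genes from 209 ± 7.60 RPKM in control to 312 ± 9.17 in A1 and 335 ± 15.04 in A1 + OVA (mean ± SD, n = 4). Of the myosin sum, Myl9 alone held 194 RPKM in control, 454 in A1 and 503 in A1 + OVA. In that family Myh9 and Myl12a rose as well, Myh10 did not pass, and Mylk and Myl12b fell. The sum of the ARP2/3 subunits among the 52 genes was 508 ± 16.7, 756 ± 22.3 and 702 ± 18.7 RPKM.

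Genes with a CArG box in the window were set beside those without one. Of the 8 with a box, 7 rose (Srf, Actg1, Cnn2, Vcl, Myl9, Arpc4 and Fhl2) and Lima1 fell, with either treatment. Of the 38 matched genes without a box, 33 rose and 4 fell with A1, and 32 rose and 4 fell with A1 + OVA, so that most genes rose with and without a box. The 38 include Acta2, Myl12a, Rdx, Tpm3 and Vasp, which held CArG-like boxes. Sequence outside the promoter windows was not searched, so the 38 are not genes known to lack an SRF site. The median log2 fold change of the 8 was 0.64 with A1 and 0.79 with A1 + OVA, beside 0.46 and 0.50 for the 38. Over all tested genes the 142 with a box had a median of 0.15 in both comparisons, and the 8812 without one of -0.00 and 0.00. Of the 142, 65 rose and 34 fell with A1, and of the 8812, 2778 rose and 2728 fell. Lima1 has the same 10 letters as Cnn2 and Vcl in its box and changed in the other direction. The medians describe few genes, and no test of the difference was made.

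Outside the 52 genes, the myocardin family of SRF cofactors did not move as 1 group. Mrtfa, which actin monomers hold in the cytoplasm, rose from 50.8 ± 3.25 CPM to 76.1 ± 6.30 in A1 (log2 fold change 0.58, SE 0.058, edgeR's adjusted p = 1.52e-08) and 66.1 ± 2.35 in A1 + OVA (0.38). Its relative Mrtfb was at 59.7 ± 3.74, 55.2 ± 3.403 and 58.2 ± 2.39 CPM and did not pass (adjusted p = 0.0767 and 0.566). Myocd, the cofactor of smooth muscle, had at most 1 count in any sample.

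Other known SRF targets moved mostly upward. With A1, 18 of 27 tested rose and 4 fell (median 0.35), and with A1 + OVA 19 rose and 4 fell (median 0.44). The shares of all genes are given above, and this list too was chosen with earlier results of these data known. Acta1, the actin of skeletal muscle, went from 1.13 ± 0.327 CPM in control to 7.91 ± 1.32 in A1 and 9.87 ± 1.87 in A1 + OVA (log2 fold changes of 2.81, SE 0.21, and 3.13, SE 0.20). Fhl1, a LIM protein, rose from 205 ± 7.01 to 689 ± 28.7 and 772 ± 24.5 CPM, and Ankrd1, a muscle ankyrin repeat protein, by 1.56 and 1.68 on the log2 scale. Zfp36l1, which promotes mRNA decay, fell by 1.47 and 1.23. A CArG box was found for 6 of 23 matched genes of this list (26.1%) and for 0 of 31 other actin regulators. These actin regulators were divided, with 18 of 37 rising and 9 falling with A1 (median 0.07), and 14 rising and 10 falling with A1 + OVA (median 0.04). With library totals only, which moves all genes downward, 12 rose and 15 fell with A1, and 12 rose and 13 fell with A1 + OVA, so neither direction prevailed under both scalings. The formin Daam2 fell by 1.69 and 1.15 and Actr3b, a minor form of an ARP2/3 subunit, by 1.41 and 1.05, while Eps8, a capping and bundling protein, rose by 1.09 and 0.91. Between A1 + OVA and A1, 9 other SRF targets were higher (5 without A1 replicate 1) and 3 lower, and 2 of the other actin regulators were higher and 2 lower, beside 6.05% and 6.81% of all tested genes. For the last list, the split was 3 and 1 with library totals only and 2 and 1 with upper-quartile scaling.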

How the data were processed

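RNA was measured in 12 samples of bone marrow-derived MSCs in 3 groups of 4. The authors made stranded poly(A) libraries, aligned the reads to GRCm38 with STAR 2.7 and counted them per gene with featureCounts 2.0, as the methods and the submitters' processing notes state. The deposited values are raw read counts without normalization. Symbols and biotypes came from GENCODE M21, which held 99.5% of the gene identifiers. Where 2 gene models are named Myl12b, the one with counts was taken. Genes were kept with edgeR's filterByExpr (edgeR 4.0.16, R 4.3.3) and restricted to protein-coding genes, and scaled by TMM, and the quasi-likelihood test of edgeR was run in 1 fit of all 12 samples with group as the factor. The Benjamini-Hochberg adjustment covered all 11314 genes. CPM are the counts scaled to the TMM-adjusted library size, and RPKM are CPM per 1000 bases of merged exons. Shares and places of genes by RPKM depend on this length, which merges the exons of all transcripts of a gene. Intervals are 95% intervals of the fitted log2 fold change. They cover the spread between 4 samples, whose number limits the precision. DESeq2 1.42.0, other scalings, filters and gene sets, only the groups compared, the replicate number as a block, and each sample left out in turn were alternatives.

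The 52 genes and the other lists were chosen with earlier results of these data known. All 52 may be named. Values in every sample are given for Srf, for the members of each family with the largest absolute fold change with A1 (2 in families of 4 or more, otherwise 1), for the 3 largest increases and decreases of each comparison, and for genes whose call differed between the treatments. Of other lists at most 4 genes with the largest fold change with A1 are named beside Mrtfa, Mrtfb and Myocd, and some items are not reported here. Marker genes, Actb, Capza2 and the ARP2/3 subunit genes outside the 52 are named outside this rule. The fits were tested on simulated data. The chi-square between replicates of a group was 1.92 to 6.83 per degree of freedom, so none is a copy of another. Columns of the table were matched to samples by their titles.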

Additional observations from a re-analysis of the deposited data

Results flagged for a closer look

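Of 156 groups of 4 samples (52 genes in 3 groups), 10 held a sample far from the other 3, with a gap over 0.829 of the range of its group. This is 6.41%, and chance alone gives about 1 in 20. Control replicate 1 was low for Vcl (398 CPM), Diaph1 (104 CPM) and Svil (84.1 CPM). Control replicate 2 was high for Cald1 (1723 CPM) and Lima1 (549 CPM) and low for Zyx (195 CPM). Among A1 samples, Myl9 was low in replicate 2 (508 CPM) and Lmod1 in replicate 3 (45.9 CPM). Among A1 + OVA samples, Capzb was high in replicate 1 (356 CPM) and Ezr in replicate 3 (145 CPM). The gaps were small next to the difference between treated and control samples for Vcl, Diaph1, Cald1, Zyx, Myl9, Capzb and Ezr, and no call of these genes against control was lost without the sample in question.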

How the results depend on the processing

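In each comparison with control, taken separately, 43 or 44 of the 52 genes rose under the 20 alternatives, and 8 to 13 were higher in A1 + OVA than in A1. The median log2 fold change ran from 0.43 to 0.54 with A1 and from 0.49 to 0.57 with A1 + OVA, lowest with library totals only, which moved the median of all genes to -0.08 and -0.06. Of 124 results of single genes, 107 kept their direction and their side of the threshold throughout. The genes that fell with A1 + OVA numbered 3 to 6 with single samples left out, and 3 without control replicate 2 or A1 + OVA replicate 3. Genes lower in A1 + OVA than in A1 numbered 2 with upper-quartile scaling, 1 with library totals only, and 1 to 7 with single samples left out (7 without control replicate 2, 2 without control replicate 3 or A1 + OVA replicate 4, and 1 without A1 replicate 3 or 4 or A1 + OVA replicate 2 or 3). Values near 0 changed sign. With A1 + OVA against control, Myh10 was at -0.0015 with RLE size factors, -0.017 with upper-quartile scaling, -0.060 with library totals only, -0.0016 with DESeq2, -0.00031 without a filter, -0.0068 with all genes of the table, -0.0019 with only the groups compared, and between -0.0492 and 0.0404 with single samples left out. With A1, Myh10 lay between -0.0720 and 0.022 and Svil between -0.0482 and 0.019, and with A1 + OVA Capza1 between -0.029 and 0.021, as single samples were left out. The causes were not tested. With the replicate number as a block 44 genes rose and 6 fell in each comparison with control, and 12 were higher and 4 lower in A1 + OVA than in A1, with Srf among those gained and Arpc4 lost (adjusted p = 0.0537). Samples with the same number had a mean correlation of their deviations of 0.021 over 12 pairs, 2 of them over 0.1, so the number was not taken to pair them.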
